A study of Mus musculus with 3 samples.

Results

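The isolated reproduced Notch2 sites of the embryonic mouse kidney are binding regions that were found in both replicate experiments and that have no other called region nearby. They were taken from 2 lists of peaks, that is, of genome regions with an excess of sequenced fragments after chromatin immunoprecipitation and sequencing (ChIP-seq) with an antibody against Notch2. Members were chosen by their positions alone. A member is a replicate 1 peak that overlapped a replicate 2 peak by 1 bp or more, with no other peak of either list within 100 kb of its edges, apart from the peaks that overlap it. This rule gave 553 sites, which is 5.84% of the 9469 shared peaks of replicate 1 and 1.93% of its 28651 peaks. Shared peaks made up 33.0% of replicate 1, and peaks of replicate 2 that overlapped one of replicate 1 made up 75.5% of its 12585 peaks. Peaks with no other peak within 100 kb made up 6.94% of replicate 1. The rule used overlap and isolation, so these counts are descriptions and support nothing further.

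Both immunoprecipitations, numbered 1 and 2 by the labels, were made from whole kidneys of mouse embryos at stage E16.5, and an input sample of kidney chromatin without immunoprecipitation was not analysed here. The labels name no mouse strain, genotype or treatment and give nothing on how the embryos or kidneys were divided between replicates, so a difference between them may be technical. Whole kidney mixes nephron, collecting duct, stromal and vascular cells, and a peak list cannot tell in which of them a site was bound or how many cells carried it. Each list gives chromosome, start and end on the mm9 build and no height, score or p-value, so read depth is unknown. No mm9 sequence or gene annotation was used here, and sites are named by position without genes or bases. The limit of 100 kb rests on these 2 lists, and a weak neighbour that neither list holds would not be seen.

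Notch2 is a cell-surface receptor. When a ligand on a neighbouring cell binds it, proteases cut it and its intracellular domain enters the nucleus, where it does not bind DNA by itself but joins RBPJ, a protein that recognises a short DNA sequence, and a Mastermind co-activator. Notch target regions may lie at promoters or at enhancers far from any gene they act on, and several may lie near each other around 1 target. In the forming nephron Notch2 is known for its role in the cells that become proximal tubule and podocytes.

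How alone the sites stood varied widely. The distance from a member to the nearest other peak ran from 100.1 kb to 2640 kb, with a median of 156 kb and an interquartile range of 121 to 230 kb. The same distance had a median of 9.65 kb over all shared peaks and 12.3 kb over all replicate 1 peaks. On the emptier side the nearest peak lay a median of 305 kb away. Of the 553 sites, 181 (32.7%) had no other peak within 200 kb, 84 (15.2%) none within 300 kb, 30 (5.42%) none within 500 kb and 4 none within 1 Mb. The stretches free of other peaks around the members covered in all 375 Mb, or 14.7% of the 2559 Mb between the outermost peaks of the chromosomes. There were 3 members that were the first or last peak of their chromosome and had a neighbour on 1 side only.

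The limit itself fell within a continuous run of distances. The 3 members just inside it were at chr8:29955749-29956373 (nearest other peak at 100.1 kb), at chr9:76313620-76314119 (100.2 kb) and at chr8:29854793-29855420 (100.2 kb). The first and the last of these are each other's neighbours. The 3 shared peaks just outside it were at chr3:119105953-119106590 (99.8 kb), at chr16:49288157-49288786 (99.7 kb) and at chr2:82865843-82866342 (99.6 kb). Their widths in replicate 1 were 625, 500 and 628 bp inside and 638, 630 and 500 bp outside. There were 63 members with a nearest peak at up to 110 kb, and 83 shared peaks with one at 90 to 100 kb.

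The most remote site was at chrX:57286141-57286766. Its peak was 626 bp wide in replicate 1 against 500 bp in replicate 2, and the nearest other peaks lay 2640 kb before it and 6569 kb after it. It stood late in both lists, at 77.1% of the length of the replicate 1 list and 81.5% of that of replicate 2. The second most remote, at chr6:62745004-62746330, was of another kind, with 1327 bp in replicate 1 and 665 bp in replicate 2 and a place at 5.10% and 16.9% of the lists. Its neighbours were 1309 kb and 1802 kb away. On chromosome 14 a pair of members followed each other, chr14:91163766-91164540 (775 bp, then 927 bp in replicate 2) and chr14:92326298-92326928 (631 bp, then 652 bp), each more than 1 Mb from any other peak. The next were at chrX:134638178-134640502, with the nearest peak at 946 kb, and at chr15:20766709-20767337, at 943 kb. These 6 sites thus included wide and narrow peaks, and early and late ones.

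Some members were neighbours of each other. With no peak of either list between them, 134 of the 553 sites (24.2%) lay in 59 runs of consecutive members, of which 46 held 2 sites, 11 held 3, 1 held 4 and 1 held 5. The run of 5 was at chrX:40526718-44992675, a stretch of 4.47 Mb. The run of 4 was at chr1:116322643-118022979 (1.70 Mb). The longest run by extent held 3 sites at chrX:22829091-33380078, over 10.6 Mb. For 189 members (34.2%, 95% Wilson interval 30.3 to 38.2%) the nearest other peak was itself shared between the replicates, for 292 (52.8%, 48.6 to 56.9%) it was a peak of replicate 1 only and for 72 (13.0%, 10.5 to 16.1%) a peak of replicate 2 only. Among the 8916 shared peaks with another peak within 100 kb, called crowded below, these shares were 40.1%, 47.7% and 12.2%. All intervals given here treat peaks as independent and cover counting error only.

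Peak width is the one measure that the lists give of a peak itself, and most members were narrow. In replicate 1 their median width was 649 bp (interquartile range 625 to 884 bp), with a minimum of 500 bp and a maximum of 3578 bp. In replicate 2 the median was 627 bp (500 to 745 bp), with the same minimum and a maximum of 2361 bp. Crowded shared peaks had medians of 771 bp in replicate 1 and 631 bp in replicate 2, and over all peaks the medians were 637 and 626 bp. The replicate 1 peaks that were isolated but had no counterpart, 1436 in number, had a median of 626 bp. The 262 isolated peaks of replicate 2 without a counterpart had a median of 500 bp, and 72.9% of them measured 500 bp. In both lists the median of the members thus lay between that of isolated unshared peaks and that of crowded shared ones.

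The smallest width in either list was 500 bp, and the next one that occurred was 625 bp. In replicate 1, 120 members measured 500 bp, or 21.7% (95% Wilson interval 18.5 to 25.3%), against 15.2% of crowded shared peaks, a difference of 6.46 percentage points (95% Newcombe interval 3.14 to 10.2). In replicate 2 it was 258 members, or 46.7% (42.5 to 50.8%), against 39.6%, a difference of 7.05 points (2.81 to 11.3). A further 32.2% of members in replicate 1 and 27.1% in replicate 2 were above 500 but under 700 bp. At the other end, 82 members (14.8%) were wider than 1000 bp in replicate 1, against 26.9% of crowded shared peaks (difference -12.1 points, -15.0 to -8.75). In replicate 2 there were 39 (7.05%), against 11.3% (difference -4.25 points, -6.22 to -1.73). Only 25 members (4.52%) exceeded 1000 bp in both lists, against 737 crowded shared peaks (8.27%). Over all peaks, shared or not, 31.8% of replicate 1 and 47.9% of replicate 2 measured 500 bp, and 15.6% and 8.57% were wider than 1000 bp. Isolated sites thus held a larger share of 500 bp peaks and a smaller share of wide ones than crowded shared peaks in both lists. Set beside the whole lists, their share of 500 bp peaks was lower in replicate 1, and in replicate 2 the Wilson interval of the members included the share of the whole list. No test was made of these differences, since peaks are not replicates and each replicate has 1 list.

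**Figure D1:**
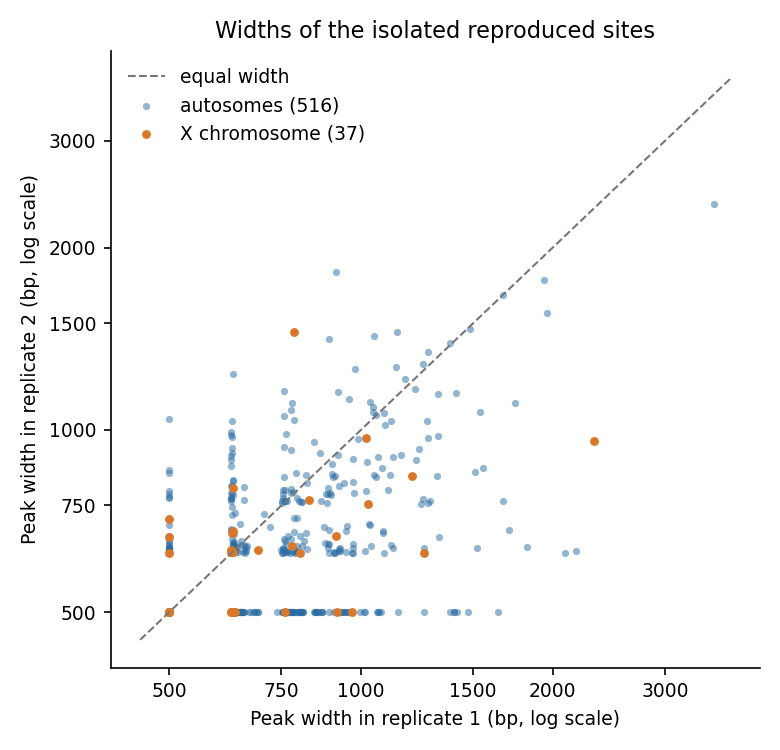
Peak width of each of the 553 isolated reproduced sites in replicate 1 (horizontal axis, bp, log scale) against replicate 2 (vertical axis, bp, log scale), with 1 point per site, the 37 sites of the X chromosome in orange and a dashed line at equal width. Most points lie below the line, and many stand in the row at 500 bp of replicate 2 and the columns at 500 and about 625 bp of replicate 1.

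Within a site the replicate 1 peak was usually the wider. It was wider in 326 members (59.0%), narrower in 136 (24.6%) and equal in 91, and 85 of the equal ones measured 500 bp in both lists. Among crowded shared peaks 66.9% were wider in replicate 1. There were 173 members at 500 bp in replicate 2 but wider in replicate 1, and 35 of the reverse kind. There were 30 members more than 500 bp wider in replicate 1 and 5 more than 500 bp wider in replicate 2. With a minimum width of 500 bp, such a difference needs a peak wider than 1000 bp. Members had 82 of these in replicate 1 and 39 in replicate 2. Among the 8916 crowded shared peaks 1114 were more than 500 bp wider in replicate 1 and 147 in replicate 2. A site at chr5:77945869-77948046 was 2178 bp wide in replicate 1 but 630 bp in replicate 2, and one at chr4:138837815-138839902 was 2088 and 627 bp wide. The reverse was seen at chr4:4231792-4232706, with 915 bp in replicate 1 and 1822 bp in replicate 2. This last site was picked after its values were seen. Across the 553 members the widths of the replicates had a Spearman rho of 0.41, given as a description, and across crowded shared peaks it was 0.42.

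A wide isolated site found in both lists was the exception, and a few stood out. Each member was given its rank by width among all peaks of each list, and the ranks were averaged without scaling for list length. The leading 12 came from 8 chromosomes, with 3 from chromosome 8. Their peaks spanned 1272 to 3578 bp in the first list and 957 to 2361 bp in the second. The widest was at chr8:64462499-64466076, a peak of 3578 bp in replicate 1 with place 15 in that list. In replicate 2 it met chr8:64463707-64466067, a peak of 2361 bp with place 19 in the list. It also met chr8:64462661-64463160, which was 500 bp wide and had place 11355. It was the sole member that overlapped 2 peaks of replicate 2, and its nearest other peak lay 101.6 kb away, so that a slightly larger limit would have removed it.

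The second by mean rank, at chr5:44731756-44733695, measured 1940 and 1767 bp with centres 97.5 bp apart, and its neighbours lay 187 and 139 kb away. The site at chr1:76015388-76017345 had widths of 1958 and 1562 bp in the lists, with neighbours at 497 and 237 kb. The site at chr14:115812642-115814314 had nearly the same width in both, 1673 and 1671 bp. That at chrX:134638178-134640502 measured 2325 bp in replicate 1 but 957 bp in replicate 2, and was the one of these 12 with the most distant neighbours, at 1387 and 946 kb. Chromosome 12 had chr12:13474608-13476353 (1746 bp, then 1107 bp in the second list) and chr12:96370794-96372115 (1322 bp, then 1147 bp). Chromosome 8 had a further pair, chr8:42537888-42539371 (1484 bp, then 1469 bp) and chr8:18920999-18922536 (1538 bp, then 1070 bp). The others of these 12 were chr3:5736129-5737507 (1379 bp, then 1392 bp), chr3:24655903-24657174 (1272 bp, then 1345 bp) and chr4:29407405-29408816 (1412 bp, then 1149 bp). Except for the first, the X site and the one starting at 13474608, the centres of these pairs lay at most 171 bp apart.

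The order of the deposited lists gives a second ranking, although the sources used here do not say what it follows. Earlier peaks were wider. Over the members the rho between width and place was -0.58 in replicate 1 and -0.67 in replicate 2. The median member stood at 31.5% of the length of the replicate 1 list (interquartile range 15.5 to 55.3%) and at 51.4% of that of replicate 2 (29.5 to 72.6%), where the median crowded shared peak stood at 23.0% and 41.2%. The first 25% of the replicate 1 list held 231 members (41.8%, Wilson interval 37.7 to 45.9%), against 53.0% of crowded shared peaks, a difference of -11.2 points (Newcombe interval -15.4 to -6.92). That of replicate 2 held 119 members (21.5%, 18.3 to 25.1%), against 31.6%, a difference of -10.1 points (-13.4 to -6.34). The last 25% of the list held 60 members (10.8%) in replicate 1, against 7.29% of crowded shared peaks, and 126 (22.8%) in replicate 2, against 18.5%. Isolated sites were therefore placed later than crowded shared ones in both lists.

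**Figure D2:**
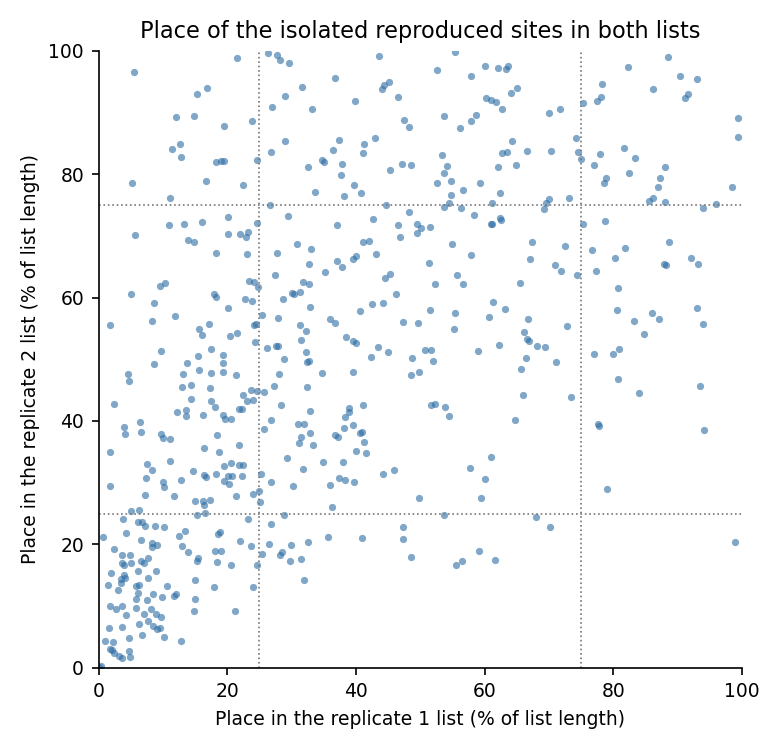
Place of each of the 553 isolated reproduced sites in the replicate 1 list (horizontal axis, % of list length) against its place in the replicate 2 list (vertical axis, % of list length), with dotted lines at 25% and 75%. Points crowd where both places are early, the area late in replicate 1 and early in replicate 2 holds a single point, and late places in replicate 2 occur at all places of replicate 1.

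The rankings agreed in part. The places of a member in the lists had a rho of 0.58, against 0.61 over crowded shared peaks. Of the members 95 (17.2%) were in the first 25% of both lists, against 27.1% of crowded shared peaks, and 29 (5.24%) in the last 25% of both, against 3.16%. A place in the first 25% of one list and the last 25% of the other was seen in 20 members (3.62%) and in 4.52% of crowded shared peaks. In 19 of these 20 members the early place was in replicate 1, and so it was in 372 of the 403 such crowded shared peaks. The exception among the members, at chr10:101261853-101262352, stood at 98.9% of the replicate 1 list with 500 bp and at 20.5% of the replicate 2 list with 782 bp. The reverse pattern was strong at chrX:154573642-154574266, at 15.4% in replicate 1 and 92.9% in replicate 2, with widths of 625 and 500 bp. Both sites were picked after their values were seen. Rows that occur more than once in a file were rare among members. One member had its row repeated in replicate 1 (0.181%) and 10 had that of their counterpart repeated in replicate 2 (1.81%), against 1.503% and 4.67% of crowded shared peaks.

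Few of the very first peaks were isolated, 22 of the first 1000 of replicate 1 against 6.94% of that whole list. Among the first 100 peaks of replicate 1, all of which were shared, 2 were members. The first 1000 held 20 members among 933 shared peaks. Members made up 5.84% of all shared peaks, but 1.93% of all replicate 1 peaks, which is near their share of these first peaks. The first 1000 of the 12585 peaks of replicate 2 held the counterparts of 22 of the 553 members. That was a smaller share than over the whole replicate 2 list, in which members overlapped 554 peaks. In all, 9 sites were among the first 1000 of both. The widest site, chr8:64462499-64466076, was also the first by mean place. The second was at chr4:18862989-18864232, at place 87 in replicate 1 with 1244 bp and at place 47 in replicate 2 with 754 bp, and its nearest other peak lay 114 kb away. The X chromosome gave 2 of the first 4, the site from 134638178 described above (places 677 and 303) and chrX:143762331-143763347 (places 515 and 376), whose widths of 1017 and 968 bp nearly matched and whose centres lay 10.5 bp apart.

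Of the 12 members of best mean place, 3 were on chromosome 2, more than on any other. They were chr2:54335677-54336438 (762 bp in replicate 1 and 985 bp in replicate 2), chr2:45760008-45760997 (990 bp, then 964 bp) and chr2:121714432-121715451 (1020 bp, then 791 bp). The set was completed by chr19:51311950-51313123 (1174 bp, then 1214 bp), chr3:22336756-22337674 (919 bp, then 1155 bp), chr11:27110558-27111578 (1021 bp, then 885 bp), a site of chromosome 18 (1085 bp, then 1066 bp) and the site of chromosome 5 that starts at 44731756. The site of chromosome 11 had neighbours 361 and 1153 kb away. Only 3 sites were in both sets of 12, so that being wide and being early in the list picked largely different members. The site of chromosome 2 from 54335677, for example, was early with a width under 1000 bp in both lists.

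Positions within a site matched closely. The centres of the overlapping peaks lay a median of 73.5 bp apart (interquartile range 34.0 to 132.5 bp, at most 603.5 bp), against 81.5 bp (37.0 to 153.5 bp, at most 1832 bp) among crowded shared peaks. Overlap was the criterion of choice and brings centres near by itself, so the crowded shared peaks serve as the reference. That reference was not matched for width, and wider peaks can overlap with their centres farther apart. Its median width in replicate 1 was 771 bp, against 649 bp for the members. Whether the differences below remain among peaks of equal width was not tested. Centres within 100 bp were found in 346 members (62.6%) and in 58.3% of crowded shared peaks, a difference of 4.31 points (Newcombe interval 0.0811 to 8.38). Within 250 bp the shares were 94.4% and 87.8%, a difference of 6.64 points (4.30 to 8.41). The shared part measured at least 107 bp in every member and reached 50% of both peaks in 522 members (94.4%), against 87.4% of crowded shared peaks. The replicate 2 peak lay wholly within the replicate 1 peak in 171 members (30.9%), against 41.1%.

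The share of isolated peaks with a counterpart combines the 2 criteria of the rule, so the shares are given as a description and support nothing. Of the 1989 isolated peaks of replicate 1, 27.8% had a counterpart, against 33.4% of the other 26662. Of the 814 isolated peaks of replicate 2, 67.8% had one, against 76.1% of the other 11771. With overlap of 50% of both peaks as the criterion of sharing, the difference between isolated and other peaks went from -5.64 to -2.97 percentage points in replicate 1 and from -8.24 to -2.18 in replicate 2. In replicate 1 the share was 36.7% (Wilson interval 34.4 to 39.1%) for peaks with the nearest other peak at up to 1 kb, 38.7% (37.6 to 39.9%) at 1 to 5 kb, 27.8% (26.4 to 29.1%) at 25 to 50 kb, 27.3% (25.7 to 28.9%) at 50 to 100 kb, 27.0% (24.8 to 29.4%) at 100 to 200 kb and 28.9% (25.2 to 33.0%) at 200 to 500 kb. In replicate 2 the share was 71.2% (68.0 to 74.3%) at up to 1 kb, 80.1% (78.7 to 81.4%) at 1 to 5 kb, 72.3% (69.6 to 74.9%) at 50 to 100 kb and 68.5% (64.4 to 72.2%) at 100 to 200 kb. Beyond 500 kb there were 91 replicate 1 peaks, of which 33.0% (24.2 to 43.1%) were shared, and 54 replicate 2 peaks, of which 55.6% (42.4 to 68.0%) were. In both lists the share was highest at 1 to 5 kb and lower for the closest peaks.

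**Figure D3:**
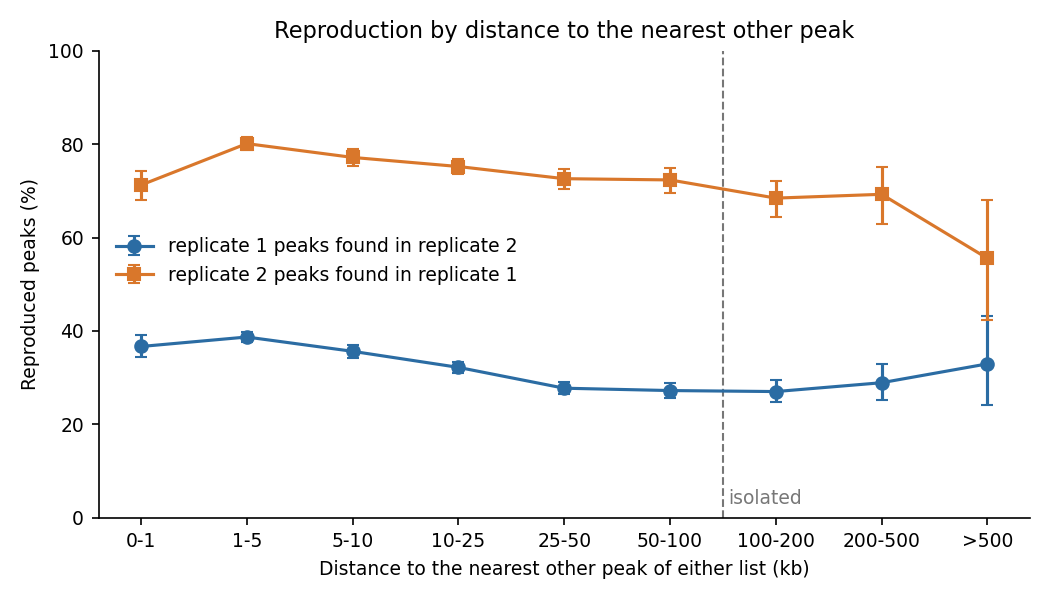
Share of peaks found in the other replicate (vertical axis, %) by the distance to the nearest other peak of either list (horizontal axis, kb, in 9 classes), for replicate 1 (blue) and replicate 2 (orange), with 95% Wilson intervals and a dashed line at the limit of 100 kb. The replicate 1 shares lie between 27.0% and 33.0% in the 5 classes beyond 25 kb, and the intervals widen beyond 500 kb, where peaks are few.

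The same shares were taken within 4 equal parts of each list and within classes of width, again as a description. In the first part of the replicate 1 list 231 of 336 isolated peaks were shared (68.8%), against 69.2% of crowded ones. The shares were 34.3% and 34.3% in the second part, 18.2% and 18.9% in the third and 9.63% and 9.94% in the last. In replicate 2 the first 3 parts gave 95.2% against 93.2%, 82.5% against 83.4% and 65.6% against 69.0%, and in the last part 126 of 266 isolated peaks were shared (47.4%), against 57.6% of crowded ones. The widest gap between isolated and crowded peaks of the same part was in the last part of replicate 2. By width, 14.8% of isolated and 16.4% of crowded replicate 1 peaks were shared at 500 bp, 35.0% and 36.7% above 500 and up to 1000 bp, and 47.1% and 55.9% over 1000 bp. In replicate 2 these shares were 57.5% and 63.8%, 78.8% and 85.6%, and, over 1000 bp, 38 of 40 isolated peaks and 94.7% of crowded ones. The widest gap in replicate 1 was over 1000 bp (-8.76 points, Newcombe interval -16.2 to -1.21). In replicate 2 it was above 500 and up to 1000 bp (-6.80 points, -11.7 to -2.58), close to that at 500 bp (-6.33 points, -11.1 to -1.66). In each list the intervals of the width classes overlapped, so their order is not settled.

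**Figure D4:**
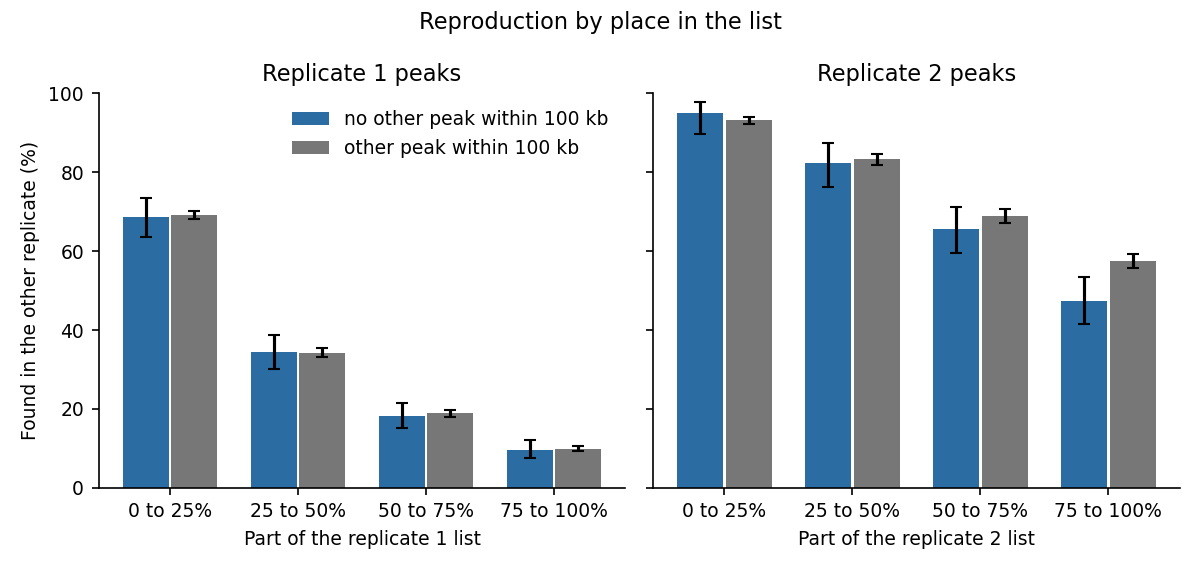
Share of peaks found in the other replicate (vertical axis, %) by part of the list in steps of 25% (horizontal axis), for replicate 1 (left) and replicate 2 (right), with isolated peaks in blue, crowded peaks in grey and 95% Wilson intervals as error bars. In replicate 1 the differences, isolated minus crowded, lie between -0.638 and 0.0647 points, and in replicate 2 the last part shows 47.4% against 57.6%.

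Shared peaks at 50 to 100 kb from the nearest other peak, just outside the rule, were close in width and place to members at 100 to 200 kb. With the nearest other peak at 1 to 5 kb, 5 to 10 kb, 10 to 25 kb, 25 to 50 kb and 50 to 100 kb, the median widths in replicate 1 were 792.5, 780, 765, 758 and 665 bp. For members at 100 to 200 kb, 200 to 500 kb and beyond 500 kb they were 666.5, 635 and 627.5 bp. The share of 500 bp peaks in replicate 1 was 12.6% at 1 to 5 kb and 22.5% (Wilson interval 19.7 to 25.6%) at 50 to 100 kb, and among members it was 21.8% (17.9 to 26.2%) at 100 to 200 kb and 20.5% (14.9 to 27.7%) at 200 to 500 kb. In replicate 2 it was 35.9%, 49.0%, 46.2% and 49.0% in these 4 classes. The median place in the replicate 1 list was 19.05% of its length at 1 to 5 kb, 31.7% at 50 to 100 kb and 29.5% at 100 to 200 kb. The 30 members beyond 500 kb stood at a median of 46.8% in replicate 1 and 51.7% in replicate 2.

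Peaks of a single list kept many shared peaks out of the set. There were 2446 shared peaks (25.8%) with no other shared peak within 100 kb, of which 553 were the members and 1893 had only peaks of a single list beside them. The lists weighed differently, since that of replicate 1 is the longer. With neighbours counted in replicate 1 only there were 689 isolated sites, and with neighbours counted in replicate 2 only there were 1838.

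Isolated reproduced sites occurred on all 19 autosomes and on the X chromosome. Chromosome 1 held most, with 56, and chromosome 19 fewest, with 11. Per Mb between the outermost peaks the autosomes ranged from 0.127 on chromosome 7 and 0.146 on chromosome 13 to 0.289 on chromosome 1 and 0.297 on chromosome 3. The share of a chromosome's shared peaks that were isolated was lowest on chromosome 13 (3.12%, Wilson interval 1.96 to 4.94%) and highest among autosomes on chromosomes 1 (7.52%, 5.83 to 9.64%) and 17 (7.38%, 4.93 to 10.9%). Over the 19 autosomes, members per Mb had a rho of 0.093 with crowded shared peaks per Mb. With protein-coding genes per Mb, counted by chromosome in a RefSeq table of GRCm38, rho was -0.52 for members and -0.38 for crowded shared peaks. These are descriptions over chromosomes that share the same 2 lists.

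**Figure D5:**
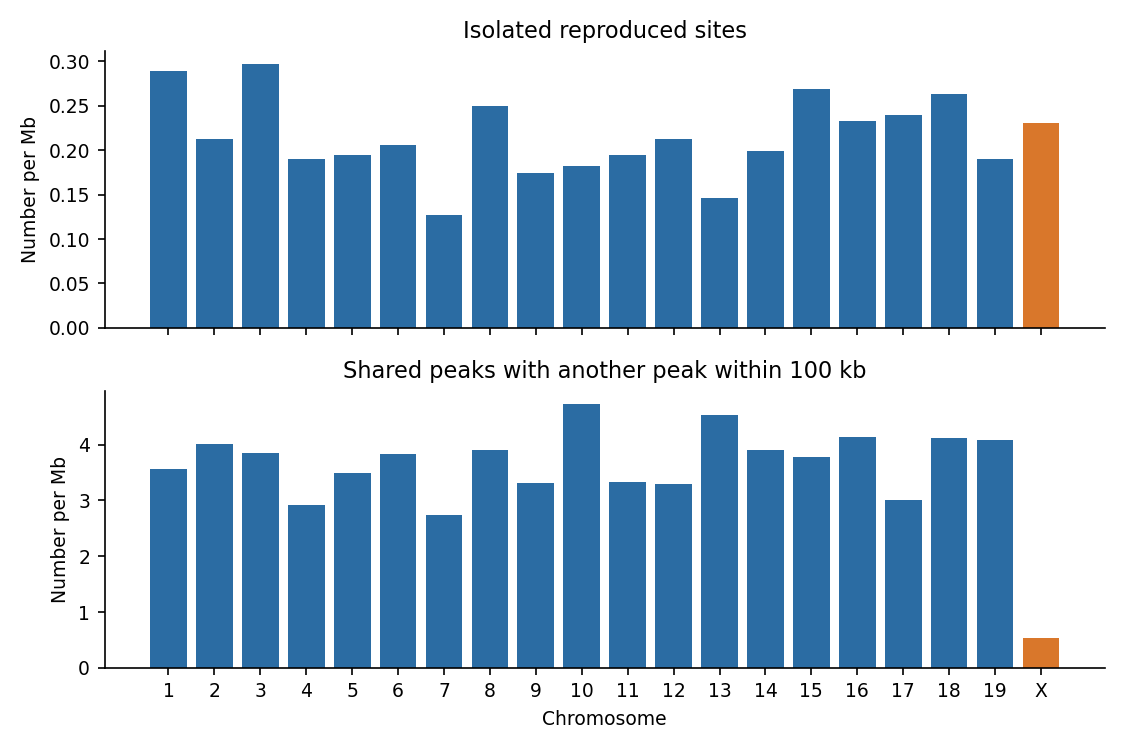
Number per Mb of span between the outermost peaks (vertical axes) of isolated reproduced sites (top) and of crowded shared peaks (bottom) on each chromosome (horizontal axis), with the X chromosome in orange. The X bar lies within the range of the autosomes in the top panel, at 0.231 per Mb, and far below them in the bottom panel, at 0.536 per Mb.

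The X chromosome differed from the autosomes in how many of its sites were isolated. It held 37 of its 123 shared peaks as isolated sites (30.1%, Wilson interval 22.7 to 38.7%), against 516 of 9346 on the autosomes (5.52%, 5.076 to 6.003%). Over all replicate 1 peaks, shared or not, 116 of 365 on the X chromosome were isolated, against 6.94% of the whole list. The contrast was therefore not particular to shared peaks. Peaks of both lists are sparse on the X chromosome, with 2.28 per Mb in replicate 1 against 9.88 to 14.4 on single autosomes. Isolation is more frequent where peaks are sparse by the rule itself. There were 0.231 members per Mb on the X chromosome and 0.215 on autosomes, a ratio of 1.07 (95% exact interval 0.746 to 1.498). Crowded shared peaks numbered 0.536 against 3.68 per Mb, a ratio of 0.146 (0.116 to 0.180). The X sites had median widths of 629 bp in replicate 1 and 627 bp in replicate 2, against 654 and 627 bp on autosomes. The 500 bp peaks among them numbered 10 of 37 in replicate 1 (27.0%, 15.4 to 43.0%, against 21.3%) and 16 in replicate 2 (43.2%, 28.7 to 59.1%, against 46.9%). Of 116 isolated replicate 1 peaks on the X chromosome, 31.9% were shared (24.1 to 40.8%), against 27.5% on autosomes. Of the 30 members more than 500 kb from any other peak, 7 were on the X chromosome.

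Of the 20 members that were the widest of their chromosome in replicate 1, 5 exceeded 1000 bp in both lists. At chr17:65539984-65541808, chr16:80512074-80513630, chr7:132011346-132012853 and chr15:18119328-18120647 it measured 1825, 1557, 1508 and 1320 bp in replicate 1. In replicate 2 these sites measured 640, 865, 851 and 975 bp. The site of chromosome 16 was early in replicate 1, at place 208, and stood at 21.2% of the replicate 2 list, with neighbours 446 and 1429 kb away. On chromosomes 2, 10, 13 and 18 the widest members measured 1473, 1413, 1254 and 1638 bp in replicate 1 but 500 bp in replicate 2, where they stood at 82.3%, 57.0%, 94.1% and 81.7% of the list. On chromosome 9 the widest, from 72191090 to 72192045, was 956 bp wide in replicate 1 and 1126 bp wide in replicate 2.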

How the data were processed

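Notch2 ChIP-seq peaks were listed for 2 immunoprecipitations of mouse kidney at E16.5. The authors deposited 1 list per replicate with 3 columns, chromosome, start and end in bp. Bowtie, SAMtools, HOMER and mm9 are named in the submitters' processing notes, and the peak calling is not given in the sources used here. Exact repeated rows were dropped (242 of 28893 in replicate 1, 480 of 13065 in replicate 2), positions are counted from 1, and distance is the number of bases between edges. Where 2 peaks overlapped a member, the one with most shared bases counted. The members, groups and naming rules were chosen with earlier results of these data known. Sites named are the 12 of best mean rank by width, the 12 of best mean place, the 6 farthest from other peaks, the 3 nearest either side of the limit and the widest per chromosome. Shares have 95% Wilson intervals, their differences Newcombe intervals and ratios exact ones. No test was run. The planned gene and motif comparisons need mm9 and were not run. On simulated data, 20 of 20 lists gave back exactly the planted isolated sites, and bedtools found the same 553 members. The tools were bedtools 2.31.1 and Python 3.11.15 with statsmodels 0.14.6, scipy 1.17.1, pandas 2.3.3, numpy 2.4.6 and matplotlib 3.10.9.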

Additional observations from a re-analysis of the deposited data

How the results depend on the processing

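The number of isolated reproduced sites followed the definition. It was 1334 with a limit of 50 kb, 181 with 200 kb and 30 with 500 kb, fewer or more by construction, 346 with centres within 100 bp as the criterion of sharing, 1838 with neighbours from replicate 2 only and 2446 with neighbours among shared peaks only. It stayed within 1.5 times of 553 in the other 5 alternatives. These include 503 sites with the upper 50% of peaks by width and 638 with the first 50% in list order. The counts do not say whether the same sites remained. The differences between isolated and crowded peaks kept their sign in every alternative run. That in centres within 100 bp was 9.63 points at 200 kb and 2.48 points with neighbours among shared peaks only (4.31 by the main rule). That in reproduction was -2.97 points in replicate 1 and -2.18 in replicate 2 with overlap of 50% of both peaks. With centres within 100 bp as the criterion of sharing it was -2.09 and -1.62 points. With neighbours among shared peaks only, the difference in the share of 500 bp peaks of replicate 2 was 12.3 points (7.05 by the main rule) and that in the first 25% of its list -14.9 points (-10.1). The cause of these shifts was not tested. Neighbours among shared peaks only, and the autosomes alone for place and reproduction, were chosen after the data were seen. Leaving out a replicate leaves no overlap. No paired analysis was possible because 1 of the 2 groups, the input, has no list used here. Unknown read depth limits every statement on a missing neighbour or counterpart.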
